A study of Mus musculus with 20 samples.

Results

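Tmem62 and Ubr1 lie next to each other on mouse chromosome 2, and in the livers of mutant mice given oxymetholone the RNA of both was lower than in untreated mutants. These 2 genes were chosen by that measured difference. They are described here with 4 genes that lie near them on the same chromosome (Cdan1 and Ttbk2 on one side, Ccndbp1 and Lcmt2 on the other) and with 2 further UBR ligases on other chromosomes, Ubr2 and Ubr4. The 6 others serve for contrast. All 8 genes were measured, out of 16115 genes in all, and all passed the filter on low counts.

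The livers came from male mice in 5 groups, sampled at 18 months, which the design text counts from the start of treatment. The groups were Fancd2 mutants (d2-/-) given metformin and oxymetholone together (3 libraries), Fancd2 mutants given oxymetholone (5), Fancd2 mutants given metformin (3), untreated Fancd2 mutants (3) and untreated wild-type mice (4). All 4 mutant groups share the d2-/- genotype, and no wild-type mouse received a drug, so a drug difference here is one in mutant liver. The product of Fancd2 acts in the Fanconi anaemia pathway, by which cells repair DNA crosslinks, oxymetholone is an anabolic androgen, and metformin is a glucose-lowering drug. Nothing used here gives the doses, the strain or whether libraries stem from separate animals, and p-values measure only the spread between these libraries.

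The N-degron pathway sets the lifetime of proteins by their first residue, and Ubr1 encodes one of its ubiquitin ligases. Its UBR box recognises proteins that carry a destabilising residue at their N-terminus and marks them with ubiquitin for the proteasome. Ubr2 encodes a close relative that reads the same residues, and Ubr4 a very large member of the family that also carries a UBR box. In humans, loss of UBR1 causes Johanson-Blizzard syndrome, in which the exocrine pancreas fails. Tmem62 encodes a transmembrane protein whose function is little studied. Cdan1 encodes codanin, which binds the histone chaperone ASF1 and is mutated in a human congenital dyserythropoietic anaemia. Ttbk2 encodes a kinase that starts the growth of primary cilia, Ccndbp1 a helix-loop-helix protein that binds D-type cyclins, and Lcmt2 an enzyme of the pathway that makes the tRNA base wybutosine, as known from its yeast counterpart.

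The promoter windows of the pair are shown because the genes are transcribed away from each other and both were low with oxymetholone, and that of Ccndbp1, the next gene along, because its level was nearly the same in all groups. Each window runs from 250 bases before to 50 bases after the annotated start and is written 5′ to 3′ on the gene's own strand, from RefSeq on GRCm38.p6. The files were made on GRCm39, so these positions are those of the older build. Capitals mark matches to the searched motifs. The Tmem62 window is chr2:120976812-120977111 on the plus strand, the Ubr1 window chr2:120970666-120970965 on the minus strand, and the Ccndbp1 window chr2:121008158-121008457 on the plus strand.
Tmem62: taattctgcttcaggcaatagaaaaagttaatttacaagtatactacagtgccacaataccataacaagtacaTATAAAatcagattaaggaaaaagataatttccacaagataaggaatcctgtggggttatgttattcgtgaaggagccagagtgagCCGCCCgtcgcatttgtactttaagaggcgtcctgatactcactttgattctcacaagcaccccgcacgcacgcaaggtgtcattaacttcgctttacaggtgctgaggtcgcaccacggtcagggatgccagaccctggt
Ubr1: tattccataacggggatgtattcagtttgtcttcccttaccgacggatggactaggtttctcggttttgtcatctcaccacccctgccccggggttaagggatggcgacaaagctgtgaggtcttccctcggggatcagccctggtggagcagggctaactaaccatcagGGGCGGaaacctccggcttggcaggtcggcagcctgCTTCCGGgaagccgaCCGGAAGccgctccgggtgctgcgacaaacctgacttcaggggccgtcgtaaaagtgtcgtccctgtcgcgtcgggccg
Ccndbp1: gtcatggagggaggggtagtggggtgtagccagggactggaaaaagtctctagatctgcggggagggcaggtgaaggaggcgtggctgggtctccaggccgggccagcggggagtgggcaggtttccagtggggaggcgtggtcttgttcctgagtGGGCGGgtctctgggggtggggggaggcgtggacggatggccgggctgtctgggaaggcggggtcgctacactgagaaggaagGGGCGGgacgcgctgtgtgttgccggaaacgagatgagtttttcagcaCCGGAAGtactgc

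The starts of Ubr1 and Tmem62 lie 6347 bases apart and point away from each other, so the windows do not overlap. The start of Ccndbp1 lies 31346 bases beyond that of Tmem62, in the same direction. The 2 windows of the pair differ in composition. That of Tmem62 is 44% G and C with 11 CpG, against 60.3% with 23 CpG in that of Ubr1 and 65% with 17 CpG in that of Ccndbp1. The median over 32851 windows of 27025 genes was 52.7% with 7 CpG.

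Motifs were searched on both strands. The full androgen and glucocorticoid receptor site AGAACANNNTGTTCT was in none of the windows of the 8 members, and 0.00913% of all windows hold it. The shorter element AGAACA, of which that site is an inverted repeat, is in 19.0% of all windows and was in neither window of the pair. It was found once each in the Lcmt2 window and in the second of the 2 Ttbk2 windows. The window of Ubr1 holds the ETS core CCGGAAG in 2 places (8.86% of all windows hold it), that of Ccndbp1 in 1 place, and that of Tmem62 in none. The GC box GGGCGG, held by 35.7% of all windows, occurs once in the windows of Tmem62 and Ubr1 and in 2 places in that of Ccndbp1. The letters of the TATA box, TATAAA (13.6%), occur in the Tmem62 window alone among these 3. They begin at base 74 of the window, far from the annotated start, which follows 250 bases. Whether they act there was not tested. The E-box CACGTG (7.15%) and the CCAAT box CCAAT (37.4%) are in none of the 3. Of the motifs searched, the only one that the pair shares in these windows is thus the GC box, which Ccndbp1 also holds.

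Libraries held 20.2 to 32.7 M counts. Levels are given as CPM, counts relative to the library's total after TMM scaling. Metformin replicate 3 and combination replicate 3 stood farthest from the other libraries, with median correlations of 0.926 and 0.916, and values without them stand beside the results of combination against metformin that they move most. The genotype was not checked, as Fancd2 was not analysed here. All 6 hepatocyte markers were measured, with a summed level of 41001 to 94473 CPM in the 8 libraries with oxymetholone and 35127 to 79992 CPM in the 10 without, which fits the liver label. In RNA of a whole tissue, fewer cells of a type and less RNA per cell cannot be told apart.

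Tmem62 had 5.55, 6.53 and 7.03 CPM in the 3 combination livers and 3.72, 2.93, 4.52, 4.38 and 2.14 CPM in the 5 oxymetholone livers. It had 15.4, 12.6 and 24.7 CPM in the metformin livers, 24.3, 20.6 and 15.8 CPM in the untreated mutant livers, and 17.4, 15.6, 17.0 and 14.0 CPM in the wild-type livers. Every library with oxymetholone was thus below every library without it. The oxymetholone livers were also all below the combination livers, while the metformin, untreated mutant and wild-type livers overlapped one another.

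The mean level of Tmem62 was 6.37 ± 0.753 CPM in combination livers (SD, n = 3), 3.54 ± 1.01 CPM in oxymetholone livers (n = 5), 17.6 ± 6.30 CPM in metformin livers (n = 3), 20.3 ± 4.24 CPM in untreated mutant livers (n = 3) and 15.98 ± 1.53 CPM in wild-type livers (n = 4). In rising order the groups were oxymetholone, combination, wild type, metformin and untreated mutant. The last 3 did not differ beyond their spread. The counts behind these levels were 112 to 299 per library with the combination and 79 to 108 with oxymetholone, and 293 to 852 with metformin.

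Ubr1 had 5.10, 7.24 and 10.8 CPM in the combination livers and 5.45, 5.23, 4.57, 3.25 and 2.60 CPM in the oxymetholone livers. It had 18.1, 15.9 and 14.1 CPM in the metformin livers, 12.2, 17.0 and 18.6 CPM in the untreated mutant livers, and 17.4, 15.8, 14.3 and 15.8 CPM in the wild-type livers. As for Tmem62, every library with oxymetholone was below every library without it. Unlike Tmem62, combination and oxymetholone livers overlapped, and the highest library with the drug was combination replicate 3.

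Group means of Ubr1 were 7.73 ± 2.90 CPM with the combination (SD, n = 3), 4.22 ± 1.25 CPM with oxymetholone (n = 5), 16.03 ± 2.03 CPM with metformin (n = 3), 15.9 ± 3.35 CPM in untreated mutants (n = 3) and 15.9 ± 1.29 CPM in wild type (n = 4). The 3 groups without oxymetholone had nearly the same mean. Per kilobase of annotated exon, Tmem62 was the more abundant of the pair in each group, at 1.90 against 0.781 CPM per kb with the combination, 1.06 against 0.427 with oxymetholone, and 4.77 against 1.60 in wild type.

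**Figure D1:**
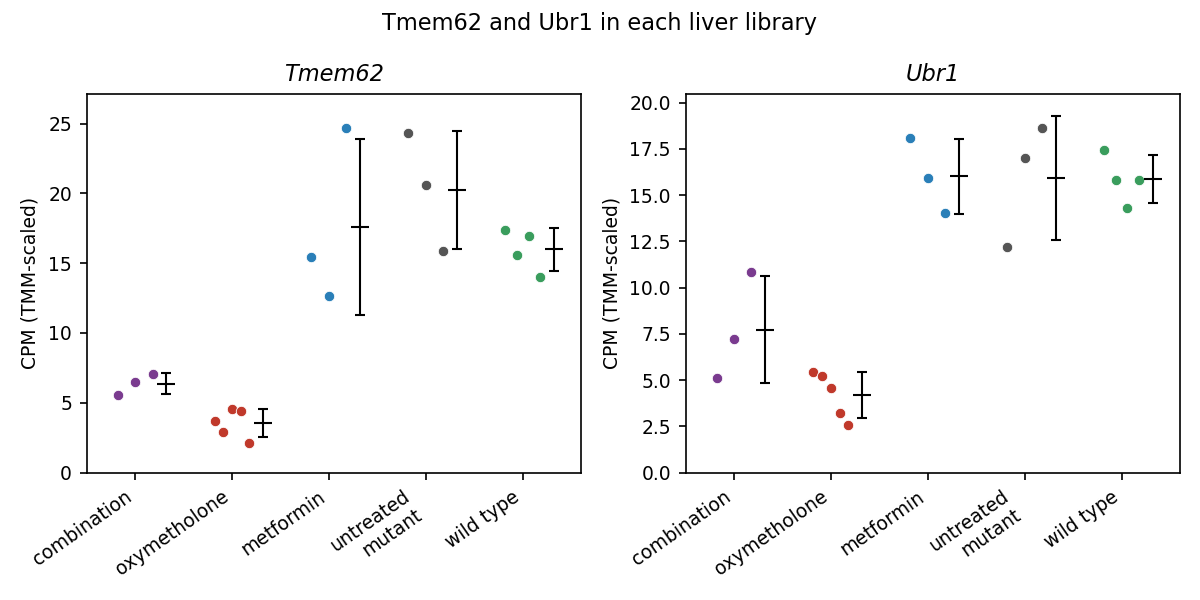
Level of Tmem62 and Ubr1 in CPM (vertical axis, linear, from 0) in each of the 18 libraries, by group (horizontal axis: combination, oxymetholone, metformin, untreated mutant, wild type). Points are libraries and bars the group mean ± SD; the 8 libraries with oxymetholone lie at 2.14 to 7.03 CPM for Tmem62 and 2.60 to 10.8 CPM for Ubr1, below all 10 libraries without it.

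Over the 8 libraries with and the 10 without oxymetholone, the lowest, median and highest levels of Tmem62 were 2.14, 4.45 and 7.03 CPM with the drug, against 12.6, 16.4 and 24.7 CPM without it. For Ubr1 they were 2.60, 5.17 and 10.8 CPM with the drug, against 12.2, 15.9 and 18.6 CPM without it. Of 16115 genes, 4 had all libraries with the drug below all those without (0.0248%): Ptprk, Tenm3, Tmem62 and Ubr1. Another 13 had all of them above (0.0807%). The highest library with the drug and the lowest without it were 7.03 and 12.6 CPM for Tmem62 and 10.8 and 12.2 CPM for Ubr1. They were 30.6 and 31.8 CPM for Ptprk, a receptor tyrosine phosphatase, and 2.19 and 2.20 CPM for Tenm3, a teneurin adhesion protein. Part of these libraries chose the pair, so the count is a description.

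The contrast that chose the pair, oxymetholone against untreated mutant, gave log2 differences of −2.52 ± 0.26 (SE, n = 5 and 3) for Tmem62 and −1.92 ± 0.26 for Ubr1. In that contrast 3 genes (0.0186%) were called lower over the whole table, namely Tmem62, Ubr1 and Mcmdc2, of 7 called in either direction (0.0434%). A gene was called at an adjusted p under 0.05 in edgeR's quasi-likelihood test. DESeq2 called 77 genes and limma-voom 14 in either direction, and edgeR's adjusted p for Ubr1 was 0.0519 without untreated mutant replicate 4 and 0.0878 with the compared groups alone. Against the same untreated mutants, the combination livers had log2 differences of −1.67 ± 0.29 for Tmem62 and −1.04 ± 0.30 for Ubr1. That comparison shares the untreated libraries with the choosing one.

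Combination against metformin, in which oxymetholone was added to metformin, shares no library with the choosing contrast. Members and tests were chosen with earlier results of these data known, so it is no independent test of the pair. Tmem62 was lower in the combination livers by a log2 difference of −1.46 ± 0.29 (SE, n = 3 each, 95% interval −2.08 to −0.85), 2.76-fold, and all 3 were below all 3 metformin livers. The unadjusted p was 0.000115, rank 5 of 16115 genes, and edgeR's adjusted p was 0.371, so the gene did not pass over the whole table. Ubr1 had a log2 difference of −1.05 ± 0.30 (95% interval −1.68 to −0.41), 2.07-fold, again without overlap, with an unadjusted p of 0.00282 by edgeR, rank 36, and an adjusted p of 0.999. Groups did not overlap, with the combination lower, in 2.15% of all genes.

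EdgeR called 0 genes in that comparison (0%), with 552 (3.43%) at an unadjusted p under 0.05, against 10 called by DESeq2 and 3 by limma-voom. Both other tools called Tmem62, with DESeq2's adjusted p at 0.00476 and limma-voom's at 0.0419. Over all alternatives its adjusted p was between 0.00476 and 0.999. Neither called Ubr1. In the authors' deposited table the log2 fold changes for combination against metformin were −1.71 for Tmem62 (adjusted p 0.198) and −0.93 for Ubr1 (adjusted p 0.439). Without metformin replicate 3 and combination replicate 3 together, edgeR's log2 differences were −1.76 for Tmem62 and −1.40 for Ubr1.

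Setting the combination livers against the mean of metformin and wild type uses all libraries outside the choosing contrast. It shares the combination and metformin libraries with the test above, and genotype differs within the side it is set against. The log2 difference was −1.39 ± 0.26 for Tmem62 (SE, n = 3 against 3 and 4, 95% interval −1.95 to −0.84), rank 12, with edgeR's adjusted p at 0.0793. For Ubr1 it was −1.04 ± 0.27 (95% interval −1.60 to −0.48), rank 50, with edgeR's adjusted p at 0.360. EdgeR called 8 genes (0.0496%), all higher. DESeq2 called Tmem62 (adjusted p 0.000247), and limma-voom called Tmem62 (0.00920) and Ubr1 (0.0339), within ranges over all alternatives of 0.000247 to 0.372 for Tmem62 and 0.0339 to 0.680 for Ubr1.

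The levels of both genes in the 3 combination livers lay below those in all 7 metformin and wild-type livers, as they did for 0.856% of all genes. In an exact two-sided permutation test of mean log2 CPM, the differences of −1.36 for Tmem62 and −1.10 for Ubr1 each had p = 0.00833, the smallest that 120 splits of 3 against 7 can give. On CPM without TMM scaling the exact p was 0.0167 for Ubr1 and 0.00833 for Tmem62. Such a test was made for the 8 members and for the difference between the neighbours, 9 in all. As the pair was chosen with earlier results of these data known, its p-values are a description. That difference, log2 Tmem62 minus log2 Ubr1, differed by −0.26 between combination livers and the others, with exact p = 0.4.

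Metformin alone and the genotype alone came with no difference in the pair beyond the spread. Both comparisons share the untreated mutant livers with the contrast that chose the pair. Metformin livers differed from untreated mutant livers by −0.20 ± 0.29 on the log2 scale for Tmem62 and by 0.01 ± 0.30 for Ubr1 (95% intervals −0.81 to 0.40 and −0.62 to 0.63). Untreated mutant livers differed from wild-type livers by 0.34 ± 0.27 and 0.01 ± 0.28 (95% intervals −0.22 to 0.90 and −0.58 to 0.59). EdgeR called 0 genes in either comparison. Unadjusted p was under 0.05 for 914 genes (5.67%) with metformin and for 416 (2.58%) with the genotype. DESeq2 called 11 genes in the metformin comparison and 0 in that of genotype, and limma-voom 0 in both.

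The difference that came with oxymetholone was smaller in value beside metformin than without it. The interaction, the log2 difference of combination against metformin minus that of oxymetholone against untreated mutant, was 1.06 ± 0.39 for Tmem62 (unadjusted p 0.0141) and 0.87 ± 0.40 for Ubr1 (unadjusted p 0.0430), with edgeR's adjusted p at 0.863 for both. Neither passed over the whole table, and the contrast that chose the pair is one side of it. Without metformin replicate 3 and combination replicate 3 the interaction was 0.76 for Tmem62 and 0.52 for Ubr1. In the authors' deposited table it was 0.89 and 0.96, with an adjusted p of 0.9999 for both. The combination livers had more Tmem62 than the oxymetholone livers with no overlap, as had 0.763% of all genes, and that table gives a log2 fold change of 1.03 (adjusted p 0.794) for combination against oxymetholone.

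None of the 4 chromosome 2 members beside the pair passed the test in any contrast, where at most 0.0496% of all genes did. Ccndbp1, the next measured gene beyond Tmem62, had the steadiest level of the 8, at 17.0 ± 0.704 CPM in combination livers, 17.5 ± 2.37 CPM in oxymetholone livers, 16.8 ± 1.37 CPM in metformin livers, 17.0 ± 0.518 CPM in untreated mutant livers and 17.8 ± 1.28 CPM in wild-type livers. Its log2 difference was 0.01 ± 0.16 for combination against metformin (95% interval −0.34 to 0.36) and 0.05 ± 0.15 for oxymetholone against untreated mutant (−0.26 to 0.36). Both intervals lie above the estimates for Tmem62 and Ubr1 in the same comparison. The second of these comparisons is the one that chose the pair.

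Ttbk2, the next gene beyond Ubr1, was low, at 2.92 ± 0.792, 2.45 ± 0.211, 2.81 ± 1.09, 2.48 ± 0.0932 and 2.73 ± 0.363 CPM in combination, oxymetholone, metformin, untreated mutant and wild-type livers. Its groups all overlapped. Cdan1 had 3.37 ± 0.440, 3.78 ± 0.861, 3.78 ± 0.638, 2.93 ± 0.202 and 3.10 ± 0.303 CPM in the same order, also with overlap throughout. Cdan1 and Ttbk2 share annotated exons on the same strand, so their counts are uncertain. Cdan1 also overlaps exons of Stard9 on the opposite strand, and the strand setting of the counting is not given.

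Lcmt2 was the most like the pair of the 6 other members. It had 11.4, 9.58 and 9.99 CPM in combination livers and 8.17, 12.1, 6.09, 9.78 and 8.37 CPM in oxymetholone livers, against 13.9, 9.81 and 9.88 CPM in metformin livers, 12.1, 11.7 and 13.2 CPM in untreated mutant livers and 12.0, 9.51, 12.2 and 9.29 CPM in wild-type livers. The groups overlapped, except that all combination livers were below all untreated mutant livers (3.95% of all genes). The log2 difference was −0.47 ± 0.21 for oxymetholone against untreated mutant, with an unadjusted p of 0.0398 and edgeR's adjusted p at 0.877. For combination against metformin it was −0.12 ± 0.24. Lcmt2 shares exon bases with Adal on the opposite strand, so its counts are uncertain too. The same holds for the pair: Tmem62 shares exon bases with Gm44325 and Ubr1 with AV039307, each on the opposite strand. Neither Gm44325 nor AV039307 was among the measured genes.

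**Figure D2:**
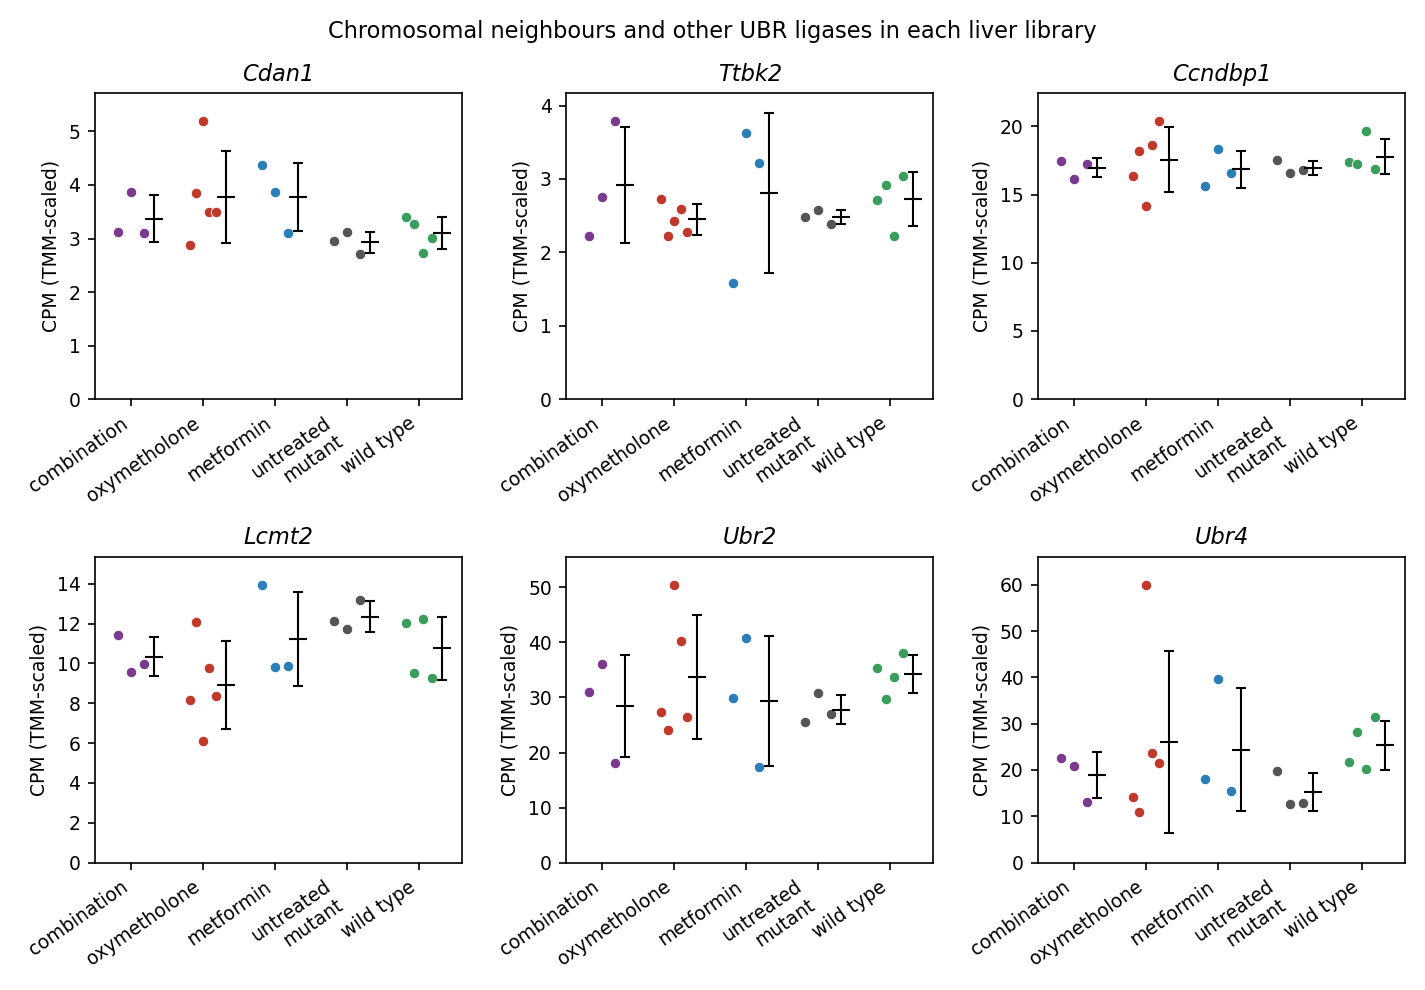
Level of the 6 other members in CPM (vertical axes, linear, from 0, scaled per gene) in each of the 18 libraries, by group. Points are libraries and bars the group mean ± SD; Ccndbp1 stays at 14.1 to 20.4 CPM in all libraries, and the highest Ubr4 point, 59.99 CPM, is oxymetholone replicate 3.

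Neither of the 2 related ligases passed the test in any contrast, where at most 0.0496% of all genes did. Ubr2 averaged 28.4 ± 9.30 CPM in combination livers, 33.7 ± 11.3 CPM in oxymetholone livers, 29.4 ± 11.8 CPM in metformin livers, 27.8 ± 2.67 CPM in untreated mutant livers and 34.2 ± 3.48 CPM in wild-type livers. Its log2 difference was −0.05 ± 0.33 for combination against metformin and 0.28 ± 0.29 for oxymetholone against untreated mutant. Ubr4 averaged 18.9 ± 5.01, 26.1 ± 19.7, 24.4 ± 13.3, 15.2 ± 4.09 and 25.4 ± 5.28 CPM in the same order of groups. Its log2 differences in the same 2 comparisons were −0.37 ± 0.50 and 0.78 ± 0.46, and all untreated mutant livers were below all wild-type livers (3.82% of all genes). Both were variable, and single libraries decided these values. Without metformin replicate 3 the difference for combination against metformin was 0.17 for Ubr4 and 0.27 for Ubr2, and without oxymetholone replicate 3 that for oxymetholone against untreated mutant was 0.21 for Ubr4. For combination against metformin limma-voom gave 0.18 for Ubr4 and 0.50 for Ubr2, the opposite sign to the values above. Oxymetholone replicate 3 had 50.5 CPM of Ubr2 and 59.99 CPM of Ubr4, the highest of all libraries for each, and metformin replicate 3 came next with 40.9 and 39.7 CPM. Ubr4 shares exon bases with Emc1 on the same strand, so its counts are uncertain.

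None of the 6 other members passed in any of the 7 contrasts by edgeR, where at most 8 of 16115 genes (0.0496%) did. Their log2 differences for combination against metformin lay between −0.37 and 0.06, where the median over all genes was −0.02. In the exact permutation test of the 3 combination against the 7 metformin and wild-type livers, their p-values were 0.292 to 1.

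The comparison was widened to the 6 nearest measured genes on each side of the pair. These are Snap23, Lrrc57, Haus2, Stard9, Cdan1 and Ttbk2 on the side of Ubr1, and Ccndbp1, Lcmt2, Adal, Zscan29, Tubgcp4 and Trp53bp1 on that of Tmem62. They include a SNARE of membrane fusion (Snap23), a subunit of the augmin complex (Haus2), a component of the gamma-tubulin complex (Tubgcp4) and the DNA repair factor 53BP1 (Trp53bp1). In combination against metformin their log2 differences were −0.37 to 0.27, with 6 of 12 lower, 0 called and a smallest unadjusted p of 0.281. In oxymetholone against untreated mutant they were −0.47 to 0.42, with 7 of 12 lower, 0 called and a smallest unadjusted p of 0.0398, that of Lcmt2. Among all genes 51.9 and 47.1% were lower in these 2 comparisons, and 0 and 0.0434% were called. The pair was chosen by its differences in the second, −2.52 and −1.92, so its place below the range there was fixed in advance.

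**Figure D3:**
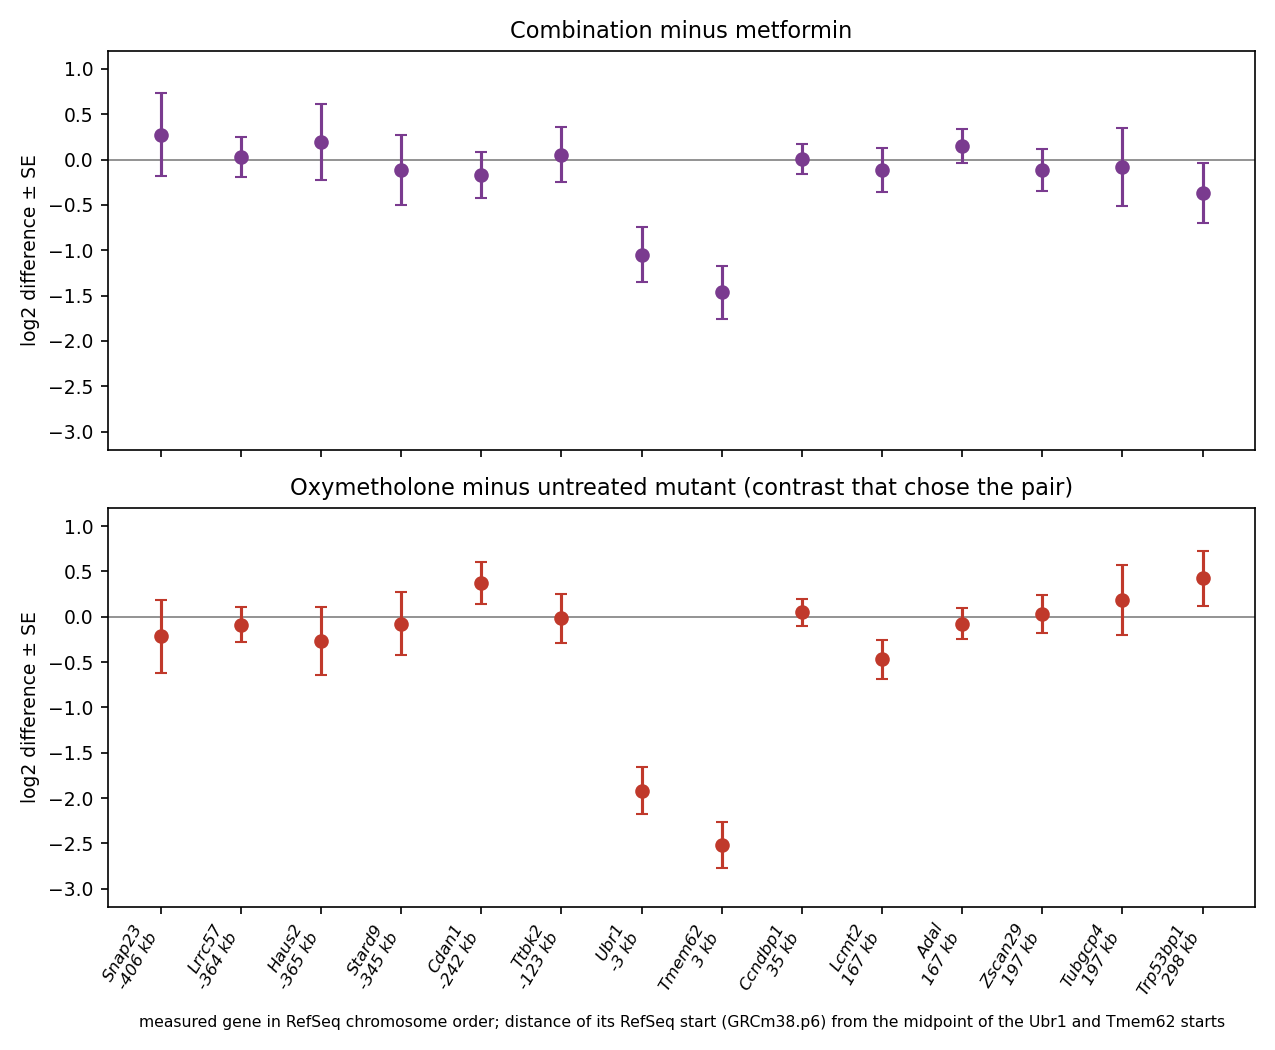
Log2 difference ± SE (vertical axis) of the pair and of the 6 nearest measured genes on each side in chromosome order (horizontal axis, evenly spaced, each label giving the distance of the gene's RefSeq start from the midpoint between the starts of Ubr1 and Tmem62 in kilobases), for combination minus metformin and for oxymetholone minus untreated mutant. The 12 neighbours lie between −0.37 and 0.27 and between −0.47 and 0.42, and the pair lies at −1.46 and −1.05 and at −2.52 and −1.92.

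A wider list of 29 genes along this stretch of chromosome 2 had 25 measured members, 23 of them beside the pair. In combination against metformin 15 of these 23 were lower and 8 higher, with 0 called. The smallest p-values belonged to Ckmt1, a mitochondrial creatine kinase, with −4.05 ± 1.03 (unadjusted p 0.00108, edgeR adjusted p 0.999), and to Ppip5k1, an inositol pyrophosphate kinase, with −1.08 ± 0.37 (edgeR adjusted p 0.999). Ckmt1 had 1.19, 1.73 and 1.46 CPM in the combination livers, against 2.53, 68.7 and 1.56 CPM in the metformin livers. The 68.7 CPM belong to metformin replicate 3, 1 of the 2 libraries that stood apart, and without it the log2 difference of Ckmt1 was −0.48 ± 0.51. Ppip5k1 had 1.68, 1.02 and 2.94 CPM in the combination livers, against 2.68, 6.17 and 3.19 CPM in the metformin livers. The groups overlapped through the 2.94 CPM of combination replicate 3, the other library that stood apart. Without metformin replicate 3, which held the 6.17 CPM, the log2 difference of Ppip5k1 was −0.63 ± 0.37. It was −1.57 ± 0.39 without combination replicate 3 and −1.14 ± 0.34 without both libraries. In oxymetholone against untreated mutant 12 of the 23 were lower and 11 higher, with 0 called.

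Whether the pair varied together from library to library was examined within each kind of library, in 2 correlations of log2 CPM. In the 8 libraries with oxymetholone, Pearson's r was 0.765 (exact permutation p 0.0276, 0.0551 adjusted over the 2 correlations) and Spearman's rho 0.643 (exact permutation p 0.0962, adjusted 0.192). Without the 2 libraries farthest from the median of Tmem62, r was 0.320 (exact permutation p 0.561). Leaving out the extremes of 1 gene narrows its range, which tends to lower r, so the weight of these libraries cannot be told from this. On unscaled CPM r was 0.830 (exact permutation p 0.0138). Part of the correlation came with the combination and oxymetholone livers being at different levels, since r was 0.481 (exact permutation p 0.228) with the group means subtracted. In the 10 libraries without oxymetholone, r was −0.570 (permutation p 0.0839, adjusted 0.0839) and rho −0.394 (permutation p 0.261, adjusted 0.261). Without the 2 farthest libraries r was 0.156 (exact permutation p 0.723), and on unscaled CPM it was −0.218 (permutation p 0.532). With the group means subtracted r was −0.621 (permutation p 0.0554).

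Counts of Tmem62 divided by counts of Ubr1 ranged over 0.649 to 1.09 in combination livers, 0.560 to 1.35 in oxymetholone livers, 0.793 to 1.76 in metformin livers, 0.850 to 1.99 in untreated mutant livers and 0.883 to 1.19 in wild-type livers. These ranges overlap among all 5 groups. The ratio does not depend on library scaling.

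**Figure D4:**
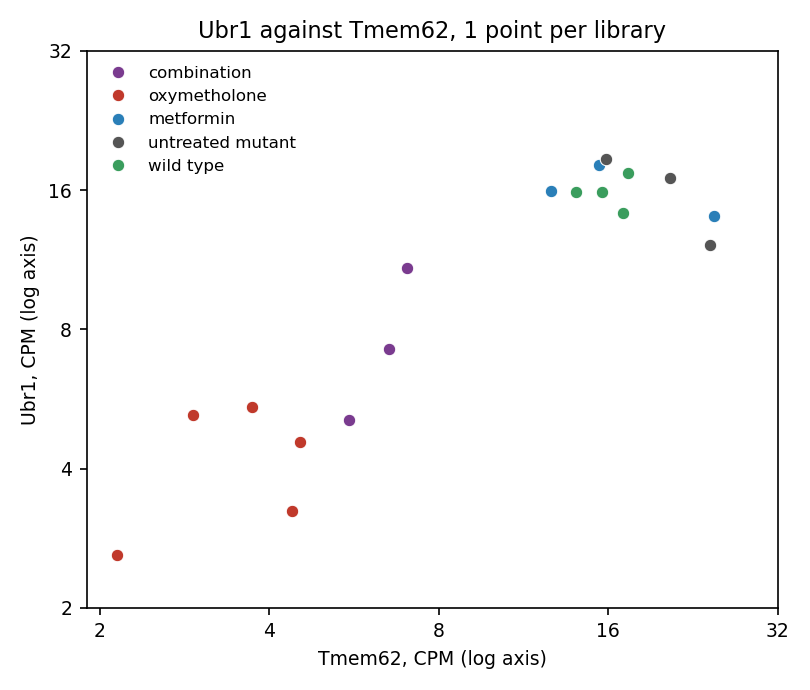
Level of Ubr1 (vertical axis) against that of Tmem62 (horizontal axis) in CPM for the 18 libraries, both on log axes, coloured by group. The 8 libraries with oxymetholone form a set at low values of both genes, apart from the 10 without it; Pearson's r of log2 CPM was 0.765 within the first set and −0.570 within the second.

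Over all 18 libraries, each gene of the pair was the one most like the other among 11588 genes with a mean log2 CPM of at least 0 (Pearson's r of log2 CPM 0.911, a description that rests largely on the gap between libraries with and without oxymetholone). After Ubr1, the genes most like Tmem62 were Tmem184c (r 0.832), the TFIID subunit Taf8 (0.819), Tcf24 (0.817) and the desmosomal cadherin Dsg1c (0.792). After Tmem62, those most like Ubr1 were the cytochrome P450 gene Cyp2c40 (0.843), Tc2n (0.826), Taf8 (0.818) and the metalloreductase Steap2 (0.815). Lcmt2 had r of 0.503 with Tmem62 and 0.536 with Ubr1. The 5 remaining members had r between −0.35 and 0.17 with either gene.

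The rest of the family and pathway of Ubr1 was examined by lists. All 7 listed UBR-box ligases were measured, and only Ubr1, which was chosen so, was called in oxymetholone against untreated mutant. Among the 6 others, 5 were lower and 1 higher in combination against metformin, and 2 lower and 4 higher in oxymetholone against untreated mutant. Over these 6, the median log2 differences were −0.22 and 0.06, against −0.02 and 0.03 over all genes. The first count and median turned with either of 2 libraries left out: without metformin replicate 3, 2 were lower and 4 higher with a median of 0.14, without combination replicate 3, 3 were lower and 3 higher with a median of 0.033, and without both libraries 1 was lower and 5 higher with a median of 0.35. In the authors' deposited table Ubr2 and Ubr4 had log2 fold changes of 0.36 and 0.34 for combination against metformin. The edgeR fit here gave −0.05 and −0.37, so the authors' fit differs from it, and the reason was not tested. Fbxo11, an F-box protein with a UBR box, had −0.27 ± 0.19 in the first comparison and Ubr7 had 0.17 ± 0.18, each with edgeR's adjusted p at 0.999.

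Partners of the N-degron pathway (ubiquitin-conjugating enzymes, the arginyl-transferase, N-terminal amidases, methionine aminopeptidases and other N-degron ligases) were measured in 19 of 20 cases, with 8 lower and 11 higher in each of these 2 comparisons and 0 called. Gid4, which recognises N-terminal proline, had a log2 difference of −0.65 ± 0.38 in combination against metformin. Zyg11b, which recognises N-terminal glycine, had −0.39 ± 0.23, and Kcmf1, a ligase that binds UBR4, had 0.46 ± 0.28. None passed (edgeR's adjusted p 0.999 each).

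The 10 genes listed as encoding substrates or sensors of N-degron pathways were all measured, and 9 of 10 were higher in combination against metformin, with a median log2 difference of 0.64, against −0.02 over all genes. In oxymetholone against untreated mutant, which shares no library with it, 9 of 10 were higher, with a median of 0.50, against 0.03 over all genes. Among all genes 51.9% were lower in the first of these comparisons and 47.1% in the second. None of the 10 was called in either. The list was chosen with earlier results of these data known, so these counts are a description. Without metformin replicate 3 and combination replicate 3 together, 7 of 10 were higher in the first comparison, with a median of 0.37. Kupffer and macrophage markers summed to 43.3, 148 and 316 CPM in combination livers (lowest, median, highest) against 51.9, 64.1 and 140 CPM in metformin livers, and to 89.0, 129 and 252 CPM in oxymetholone livers against 95.5, 129 and 164 CPM in untreated mutant livers. Their part in the result was not tested. Rgs4, a regulator of G-protein signalling whose protein is degraded through its N-terminal cysteine, averaged 5.81 ± 3.14 CPM in combination livers and 2.86 ± 0.468 CPM in metformin livers (SD, n = 3 each; log2 difference 1.03 ± 0.47, edgeR unadjusted p 0.0443 and adjusted p 0.999). Nlrp1b, an inflammasome sensor, had 1.49 ± 0.70 and the haem oxygenase Hmox1 1.01 ± 0.56 in that comparison. Without both libraries the log2 differences were 0.52 for Rgs4, 0.48 for Nlrp1b and 0.33 for Hmox1. Protein turnover was not measured.

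The other lists held no called gene in either comparison, where edgeR called 0 and 0.0434% of all genes. Of 7 wybutosine and Lcmt2 partners, 5 were lower in combination against metformin and 4 in oxymetholone against untreated mutant, with medians of −0.10 and −0.17 (Trmt5, a tRNA methyltransferase of the pathway, had −0.24 ± 0.21 in the first, Trmt12 −0.30 ± 0.27 and Tyw1 −0.29 ± 0.35). Of 4 codanin partners, 2 were lower in each, with medians of −0.11 and −0.15 (Cdin1, whose product binds codanin, had −0.63 ± 0.37 in the first, the coat protein gene Sec23b −0.41 ± 0.32 and the histone chaperone gene Asf1a 0.19 ± 0.37). Of 7 Ttbk2 partners, 5 were lower in the first and 3 in the second, with medians of −0.16 and 0.06. Of 6 Ccndbp1 partners, 2 were lower in each, with medians of 0.13 and 0.54, and Cdk4, a cyclin D kinase, had 0.38 ± 0.21 in the first.

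Markers of other cell types did not separate the libraries with oxymetholone from those without. Summed over 5 bile duct markers, levels were 42.7 to 664 CPM with the drug and 34.3 to 1465 CPM without it. Over 6 stellate and fibroblast markers they were 59.1 to 723 CPM with it and 154 to 515 CPM without it, and over 5 endothelial markers 40.8 to 63.9 CPM and 42.4 to 70.3 CPM. Kupffer and macrophage markers (5 of 5) summed to 43.3 to 316 CPM with the drug and 51.9 to 254 CPM without it. Erythroid markers (5 of 6), B and plasma cell markers (4 of 4), T cell markers (3 of 4) and neutrophil markers (3 of 4) overlapped between the sets as well. The part of cell composition in the levels of Tmem62 and Ubr1 was not tested.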

How the data were processed

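Liver RNA was measured in 18 libraries, of 20 labelled samples. Metformin replicate 2 and replicate 1 of the untreated mutants were not analysed here. Groups follow the genotype and treatment labels, and replicates are numbered in record order. The authors deposited whole-number counts for 16115 genes, already filtered, and a CPM signal per library, which equals the TMM-scaled CPM computed here. Log2 residuals were deposited too and not used. Deposited log2 fold changes and p-values are named where given, and they come from the authors' own fit, which gives other values than the one here. Per the submitters' processing notes the build was GRCm39. The sources used here name no aligner, counter, annotation or strand setting.

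Counts were fitted with edgeR 4.0.16 in R 4.3.3: TMM factors of 0.798 to 1.31, filterByExpr (no gene lost), robust quasi-likelihood with a coefficient for each group, a common dispersion of 0.181, and Benjamini-Hochberg adjustment over 16115 genes at 0.05. For log2 CPM the prior count was 2. Intervals are 95% by the t distribution of the fit. Between libraries of a group, chi-square was at least 70.3 per degree of freedom. Exon lengths and overlaps came from GENCODE on GRCm38, and promoters of all 8 members from RefSeq. The fit was tested on simulated counts: for combination against metformin it recovered 14% of genes changed 2-fold and 68% at 4-fold over 15917 genes, with 5 false of 140 calls.

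Members, lists and tests were chosen with earlier results of these data known. Genes named beside the members were the 6 nearest measured on each side, up to 3 of each list by p in combination against metformin, and the 4 next most alike for each of the pair. Others, such as Mcmdc2, Ptprk and Tenm3, were named after their values were seen. One gene that this rule names is not reported here. Alternatives were DESeq2 1.42.0, DESeq2's size factors, a mean CPM of at least 1, the compared groups alone, limma-voom 3.58.1 (with quality weights) and the removal of each library in turn. Leaving out metformin replicate 3 with combination replicate 3, and leaving out libraries for the lists, were added after the data were seen.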

Additional observations from a re-analysis of the deposited data

Results flagged for a closer look

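Ubr4 in oxymetholone replicate 3, at 59.99 CPM, lay above the 4 other oxymetholone livers (10.9 to 23.7 CPM). Its gap to the nearest of them was 0.739 of the group's range, above Dixon's 95% critical value of 0.71 for 5 samples. Among 16 groups of 4 or more libraries checked, this was the only one past its limit, and chance puts about 1 in 20 there. The same library had the highest Ubr2, at 50.5 CPM, and the lowest Lcmt2, at 6.09 CPM, while its Tmem62 and Ubr1, at 4.52 and 4.57 CPM, lay within the range of the other oxymetholone livers for Ubr1 and just above it for Tmem62.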

How the results depend on the processing

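Tmem62 and Ubr1 kept their direction under all 13 alternatives of combination against metformin and all 17 of combination against the mean of metformin and wild type. For the first, Tmem62 ranged over −1.76 to −1.14 and Ubr1 over −1.40 to −0.82. For the second the ranges were −1.58 to −1.23 and −1.37 to −0.82. What differed was the call. In the first comparison Tmem62 was called by DESeq2 (−1.48, adjusted p 0.00476) and limma-voom (−1.74, adjusted p 0.0419). In the second it was called by DESeq2 (−1.39, adjusted p 0.000247) and limma-voom (−1.57, adjusted p 0.00920), and Ubr1 by limma-voom (−1.28, adjusted p 0.0339). With single libraries left out, edgeR's adjusted p for Tmem62 in the first was 0.197 to 0.944. In the choosing contrast Ubr1 was not called without untreated mutant replicate 4 (adjusted p 0.0519) or with the compared groups alone (adjusted p 0.0878).

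Calls over all genes by edgeR were 0, 8, 7 and 3 for combination against metformin, against the mean of metformin and wild type, oxymetholone against untreated mutant and combination against untreated mutant. DESeq2 called 10, 40, 77 and 43 in these, 11 in metformin against untreated mutant and 3 in the interaction. Limma-voom called 3 in combination against metformin, 14 in oxymetholone against untreated mutant and 16 in combination against untreated mutant. With the compared groups alone, 2 were called in combination against the mean and 0 in combination against untreated mutant, and without metformin replicate 3 and combination replicate 3 together, 5 in each. With single libraries left out, calls in these 4 comparisons were 0 to 2, 5 to 10, 4 to 7 and 0 to 3. These causes were not tested.

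Of 696 alternative values of the 6 other members, 75 changed sign and 0 were newly called. For combination against metformin, limma-voom gave −0.17 for Ttbk2, 0.0071 for Lcmt2, 0.50 for Ubr2 and 0.18 for Ubr4, and without these 2 libraries Ubr2 was 0.50 and Ubr4 0.35. For combination against the mean, limma-voom gave 0.075 for Cdan1, −0.11 for Ttbk2 and 0.19 for Ubr2, and without both libraries they were 0.039, −0.051 and 0.24, with Ubr4 at 0.073. For combination against untreated mutant, Ccndbp1 was −0.013 by DESeq2, −0.014 with its size factors, −0.0019 with the compared groups alone and −0.023 without both libraries, where Ttbk2 was −0.0064. For metformin against untreated mutant, Ubr1 was −0.0097 by DESeq2, −0.0095 with its size factors, −0.17 by limma-voom and −0.0016 with the compared groups alone. In it Ccndbp1 was 0.0019 above a mean CPM of 1, Tmem62 was 0.081 by limma-voom and 0.0029 without both libraries, Ubr2 −0.38 and −0.24, and Ttbk2 −0.020 without both. The interaction was −0.14 for Ttbk2 and 0.36 for Ubr2 by limma-voom, and 0.22 for Ubr2 without both libraries. The permutation difference of Cdan1 was 0.020 on unscaled CPM and 0.0099 on DESeq2-normalized counts. Correlations of the pair moved to 0.320, 0.481 and 0.830 with oxymetholone and to 0.156, −0.218 and −0.621 without it under the alternatives given above.

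With single libraries left out, values that crossed 0 ranged as follows. In the permutation difference, Ccndbp1 was −0.057 to 0.0022, Cdan1 −0.11 to 0.059, Ttbk2 −0.11 to 0.26 and Ubr2 −0.39 to 0.10. In combination against the mean, Ccndbp1 was −0.054 to 0.0046, Cdan1 −0.14 to 0.033, Lcmt2 −0.16 to 0.0069, Ttbk2 −0.15 to 0.24 and Ubr2 −0.37 to 0.084. In combination against metformin, Ccndbp1 was −0.041 to 0.075, Lcmt2 −0.20 to 0.071, Ttbk2 −0.22 to 0.28, Ubr2 −0.32 to 0.27 and Ubr4 −0.62 to 0.17. In combination against untreated mutant, Ccndbp1 was −0.022 to 0.034 and Ubr2 −0.18 to 0.27. The interaction was −0.11 to 0.026 for Ccndbp1 and −0.20 to 0.30 for Ttbk2. In metformin against untreated mutant, Ccndbp1 was −0.075 to 0.041, Ttbk2 −0.038 to 0.46, Ubr1 −0.15 to 0.14 and Ubr2 −0.24 to 0.35. In oxymetholone against untreated mutant, Ccndbp1 was −0.0098 to 0.12 and Ttbk2 −0.059 to 0.015, and in untreated mutant against wild type, Ubr1 was −0.12 to 0.17.

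Tmem62 had counts of 79 to 852 per library. In its metformin livers counting alone would give an SD of 0.805 CPM, against 6.30 CPM found. In its combination livers these were 0.508 and 0.753 CPM. Low counts limit Ttbk2 (30 to 161) most. No paired analysis was made, because the labels give no pairing of livers across groups.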
